A study of Rattus norvegicus with 10 samples.

Results

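The genes described here are Fos, Fosb, Fosl1, Jun, Junb and Atf3, which encode transcription factors of the AP-1 and ATF3 group. They are 6 of the 32623 genes counted in each library, chosen by their Ensembl identifiers and kept only where the chromosome in the files was the one given for the gene. Transcripts were counted in the gastric mucosa of Sprague Dawley rats in 10 libraries, 2 in each of 5 groups. Rats of the honokiol plus indomethacin group were given honokiol (40 mg/kg, intraperitoneally), a natural compound from magnolia, and oral indomethacin 30 min later, for which the general protocol states 48 mg/kg. The other treated groups received an oral dose of 48 mg/kg of indomethacin, 75 mg/kg of diclofenac or 400 mg/kg of aspirin, each a non-steroidal anti-inflammatory drug (NSAID), and tissue was taken at 4 h. The labels of the control group name no treatment. The time label of the honokiol group has the length of the honokiol lead, so sampling at 4 h rests for that group on the general protocol. The labels name epithelial cells as the cell type of all samples, and the markers that would check this could not be matched to the files' identifiers. No label ties a library to an animal of its own, so the p-values reflect only how far these libraries scatter, which may be technical in the honokiol plus indomethacin, diclofenac and aspirin groups. In the indomethacin and control groups 1 library holds Y-chromosome reads and the other almost none, so those libraries differ in source. In bulk mucosa, fewer cells of a type and less RNA per cell cannot be told apart.

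AP-1 is a dimer of basic leucine zipper proteins. FOS, FOSB and FOSL1 cannot pair with themselves and bind DNA with a JUN partner, whereas JUN and JUNB can also pair with each other. ATF3 belongs to the ATF/CREB branch of the same fold, can pair with JUN proteins, and often acts as a repressor when it pairs with itself. Several of these genes are classical immediate early genes: their transcription starts within minutes of growth factor, injury or stress signals, without new protein synthesis, and their messengers are short lived. In the stomach they are known to respond to mucosal injury.

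Fos (ENSRNOG00000008015) lies on chromosome 6 from 109300433 to 109303299 and has 4 exons. Fosb (ENSRNOG00000046667, 80214494 to 80221710, 6 distinct exon intervals) and Fosl1 (ENSRNOG00000020552, 220826560 to 220835066, 4 exons) both lie on chromosome 1, far apart. Jun (ENSRNOG00000026293, chromosome 5, 114011189 to 114014277) and Junb (ENSRNOG00000042838, chromosome 19, 26092974 to 26094756) are single-exon genes. Atf3 (ENSRNOG00000003745) lies on chromosome 13 from 109817728 to 109849632, with 6 distinct exon intervals. Coordinates are those of the files, whose genome build no source used here names. None of the 6 overlapped another counted feature, on either strand, so the unstated strand setting does not bring reads of an annotated neighbour into these counts.

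The sequences before the starts of Fosl1 and Junb, which were called together in the 3 NSAID comparisons, are shown because their windows lie outside the annotated gene in the RefSeq table of build GRCr8. Fosb was also called in all 3, but its window does not lie outside the annotated gene and is not shown. That window holds no TGACG match. Each line gives the 250 bases before the gene start, 5′ to 3′ on the strand of the gene, at chr1:212183635-212183884 for Fosl1 and chr19:40080876-40081125 for Junb, both on the plus strand of GRCr8. Capitals mark TGACG, the core of the cAMP response element that ATF, CREB and JUN proteins bind (it reads CGTCA where it lies on the other strand), and the TATA motif TATAAA.
Fosl1: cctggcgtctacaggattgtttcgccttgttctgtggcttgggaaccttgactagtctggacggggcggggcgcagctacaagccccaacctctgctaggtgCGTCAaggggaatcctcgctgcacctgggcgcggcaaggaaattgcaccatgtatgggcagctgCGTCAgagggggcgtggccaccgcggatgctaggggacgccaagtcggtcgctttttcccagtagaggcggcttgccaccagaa
Junb: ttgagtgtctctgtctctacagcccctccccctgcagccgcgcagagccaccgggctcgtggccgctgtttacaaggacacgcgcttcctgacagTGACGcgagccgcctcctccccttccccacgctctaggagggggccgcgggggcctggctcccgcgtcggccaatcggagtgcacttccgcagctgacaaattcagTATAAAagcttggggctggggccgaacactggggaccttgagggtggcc
Fosl1 has 2 TGACG matches, both on the other strand, beginning 148 and 84 bases before the start, and Junb has 1, beginning 155 bases before it. Over both strands, TGACG occurs in 18.2% of the 33469 windows of the same length in the table. Junb has 1 TATAAA, 49 bases before the start, a motif found in 12.9% of windows, and Fosl1 has none. The AP-1 site TGANTCA (in 6.34% of windows), the full element TGACGTCA (1.59%), which contains TGACG, and the CArG box of serum response factor (1.5%) are not in either window. These matches are letters in a window and show no binding.

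Library totals ran from 23892226 to 44977459 counts, and the 6 genes together held 982 to 14519 counts in a library. Features where the mitochondrial ribosomal RNA genes lie took 28.5% and 31.3% of counts in the honokiol plus indomethacin libraries, 29.7% and 19.3% with indomethacin, 18.7% to 21.2% with diclofenac and aspirin, and 32.3% and 32.4% in controls. Both honokiol plus indomethacin libraries, indomethacin replicate 1 and control replicate 1 held 2733 to 4438 counts on the Y chromosome and the other 6 libraries at most 47, so Y reads were uneven between the groups compared. The part of either measure in the results below was not tested beyond the Y-read fits given with them.

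The Fos group was low in control mucosa and high with each NSAID. Fos, the prototype of the group, had 22.9 and 42.2 CPM in the indomethacin libraries, 15.5 and 46.4 CPM with diclofenac and 13.9 and 39.2 CPM with aspirin, against 2.24 and 2.04 CPM in controls. These values are CPM, counts relative to the library total, scaled by TMM factors that correct for differences in library make-up. All 6 genes passed the filter on low counts. With only the honokiol plus indomethacin and control libraries, Fosb and Fosl1 did not pass it. They entered the tests through the NSAID libraries, where they are high. Every NSAID library was above both controls, and in each NSAID group replicate 2 was the higher library. Fos rose 14.4-fold with diclofenac (95% interval 4.47 to 46.6) and 12.4-fold with aspirin (3.87 to 39.7), at edgeR adjusted p = 0.025 and 0.021. With indomethacin the fitted fold was 15.2 (95% interval 4.69 to 49.2) but the edgeR adjusted p was 0.08, so this difference was not called. Before adjustment the edgeR p of Fos was 0.00087 with indomethacin, 0.00096 with diclofenac and 0.0013 with aspirin, so it was no weaker with indomethacin.

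Fosb, which in rodents also gives the long-lived truncated form known as deltaFosB, was the scarcest of the 6 in both controls per kb of exon. It had 3.74 and 4.29 CPM with indomethacin, 2.36 and 3.36 with diclofenac and 1.95 and 2.08 with aspirin, against 0.379 and 0.267 in controls. The control values rest on 12 and 8 counts and the NSAID values on 53 to 167. The 2 libraries of each NSAID group lay closer together for Fosb than for the other 5 genes. Fosb rose by 3.62 ± 0.36 on the log2 scale with indomethacin, by 3.13 ± 0.35 with diclofenac and by 2.63 ± 0.36 with aspirin (SE; by edgeR, adjusted p = 0.0032, 0.0013 and 0.0031). In the indomethacin comparison Fosb had the lowest unadjusted p, 4e-07, of the 16346 genes tested.

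Fosl1 encodes FRA-1, a Fos protein without the transactivation domain of FOS that is known for its part in cell migration and wound edges. It had 2.71 and 4.39 CPM with indomethacin, 2.54 and 4.86 with diclofenac and 1.25 and 3.76 with aspirin, against 0.347 and 0.134 CPM in controls. All 6 NSAID libraries exceeded both controls, and aspirin replicate 1 was the lowest of them. The controls held 11 and 4 counts, so the control level itself is loosely known: from counts alone the ratio of diclofenac to control is 15.1 with an exact 95% Poisson interval of 9 to 27.3, which covers counting error only. Fosl1 rose by 3.85 ± 0.66 on the log2 scale with indomethacin, by 3.91 ± 0.66 with diclofenac and by 3.37 ± 0.66 with aspirin (SE; by edgeR, adjusted p = 0.027, 0.008 and 0.012).

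Jun had the smallest fitted changes of the 6, and its control level per kb of exon was below that of Junb alone. Jun encodes the main partner of the Fos proteins and can switch on its own gene. It had 31.8 and 63 CPM with indomethacin, 46.7 and 94.8 with diclofenac and 61.7 and 87.9 with aspirin, against 17 and 16.3 CPM in controls. The groups did not overlap, but indomethacin replicate 1 lay less than 2 times above the higher control. Jun rose 4.25-fold with diclofenac (95% interval 2.37 to 7.61) and 4.49-fold with aspirin (2.5 to 8.06), at edgeR adjusted p = 0.012 and 0.0085. With indomethacin the fitted fold was 2.84 (1.6 to 5.05) at an edgeR adjusted p of 0.12, and it was not called.

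Junb, whose protein is a weaker activator than JUN and can restrain it, had the highest level of the 6 per kb of exon in every NSAID library. It had 63 and 120 CPM with indomethacin, 64.2 and 145 with diclofenac and 65.3 and 134 with aspirin, against 12.1 and 10.4 CPM in controls. Replicate 1 of the 3 NSAID groups lay within a narrow band of 63 to 65.3 CPM, and replicate 2 exceeded it by 1.91-fold with indomethacin, 2.25-fold with diclofenac and 2.04-fold with aspirin. Junb rose by 3.03 ± 0.49 on the log2 scale with indomethacin, by 3.21 ± 0.5 with diclofenac and by 3.15 ± 0.49 with aspirin (SE; by edgeR, adjusted p = 0.029, 0.0076 and 0.0073).

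Atf3, a gene switched on by many stress signals, among them the integrated stress response, had 28.9 and 49 CPM with indomethacin, 21.1 and 51.5 with diclofenac and 16 and 34.7 with aspirin, against 4.36 and 3.64 CPM in controls. All NSAID libraries were above both controls. Atf3 rose 9.06-fold with diclofenac (95% interval 3.13 to 26.3) and 6.34-fold with aspirin (2.23 to 18.1), at edgeR adjusted p = 0.032 and 0.033. Its fitted fold with indomethacin was 9.73 (3.35 to 28.3), at an edgeR adjusted p of 0.097 that misses the threshold. Before adjustment the edgeR p of Atf3 was 0.0014 with indomethacin, 0.0016 with diclofenac and 0.0039 with aspirin.

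**Figure D1:**
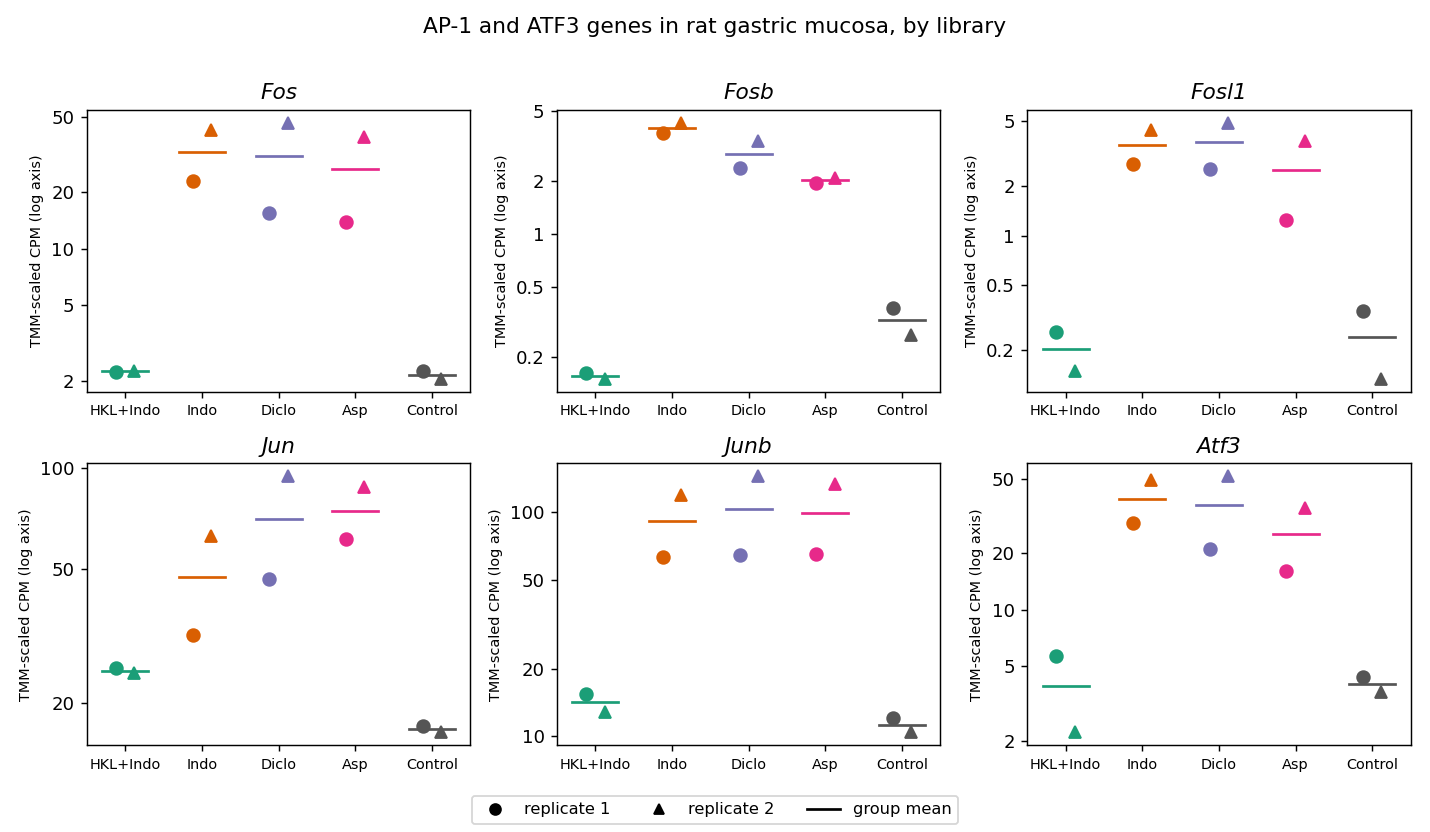
TMM-scaled CPM on a log axis for each gene, with a point for each library (circle, replicate 1; triangle, replicate 2) and a line at the group mean, in the groups honokiol plus indomethacin (HKL+Indo), indomethacin (Indo), diclofenac (Diclo), aspirin (Asp) and control. For each gene the 6 NSAID libraries lie above both controls, and the honokiol plus indomethacin libraries lie below both indomethacin libraries.

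Counted together, 3 of the 6 genes were called with indomethacin (Fosb, Fosl1 and Junb) where 0.752% of all tested genes were called higher. With diclofenac 6 of 6 were called, where 4.76% of tested genes were, and with aspirin 6 of 6, where 9.5% were. The adjusted p of a gene depends on the p-values of all tested genes, so these counts do not rank the drugs. The median log2 fold change of the 6 was 3.45 with indomethacin, 3.2 with diclofenac and 2.91 with aspirin, while over all tested genes it was -0.02, -0.01 and 0. All 6 genes had groups that did not overlap in each comparison, which was also true in that direction of 20.1%, 27% and 30.4% of tested genes. For the mean of the 3 it was true of 12.4%. These 3 comparisons share the control libraries. With the mean of the 3 NSAIDs against control, 6 of 6 were called, where 6.11% of tested genes were called higher. Fosb then had a log2 fold change of 3.12 ± 0.33 (SE; by edgeR, adjusted p = 0.00092) and Jun the smallest, at 1.92 ± 0.34 (SE; by edgeR, adjusted p = 0.0097).

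The number of calls moved with single libraries, most of all the controls, and in most of these fits the calls over all genes moved too. With all 10 libraries edgeR called, in either direction, 127 genes with indomethacin, 1286 with diclofenac, 2903 with aspirin and 1819 with the mean of the 3. Without control replicate 1 it called 21, 319, 467 and 229 of 16999 tested genes, and 1, 2, 1 and 1 of the 6, with Fosb among them each time. Without control replicate 2 it called 1, 1273, 2312 and 1050 of 17061 genes, and 0, 3, 4 and 3 of the 6. The 0 of 6 with indomethacin thus stands beside 1 gene called in all, and before adjustment all 6 genes were below 0.05, as they were with all libraries, where 9.87% of tested genes were.

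Leaving out a treated library also changed counts. In the indomethacin comparison 1 of the 6 (Fosb) was called without indomethacin replicate 2, where 52 genes were called in all, and 4 (with Jun added) without indomethacin replicate 1, where 113 were. All 6 were called without diclofenac replicate 1 or 2, where 200 and 192 genes were called, and by DESeq2, where 381 were. In the diclofenac comparison 4 were called without diclofenac replicate 2 (not Jun or Atf3), where 424 genes were called in all. There 5 were called (not Fos) without honokiol plus indomethacin replicate 1 or 2, where 922 and 932 genes were called. In the aspirin comparison 5 were called (not Atf3) without aspirin replicate 1 or 2, where 462 and 3606 genes were called. With the mean of the 3 NSAIDs 5 were called (not Atf3) without indomethacin replicate 2, where 738 genes were.

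With a Y-read term 1, 2, 3 and 4 of the 6 were called for indomethacin, diclofenac, aspirin and their mean, with Fosb called in all 4, and 116, 383, 683 and 696 genes were called in all. Within the libraries without Y reads Fosb alone of the 6 was called in each of these comparisons, where 39, 150, 184 and 154 of 16824 genes were. Control and indomethacin each have a lone library there, assumed to vary like the diclofenac and aspirin libraries, which supply the spread. Within those with Y reads 3 were called for indomethacin (Fos, Fosb and Junb), where 135 of 15891 genes were. That comparison is 1 library against 1, and its spread comes from the 2 honokiol plus indomethacin libraries alone. In every fit run the log2 fold change of each of the 6 genes was positive in these 4 comparisons, and Fosb ranged from 3.29 to 4.01 with indomethacin, from 2.85 to 3.43 with diclofenac and from 2.43 to 2.94 with aspirin.

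**Figure D2:**
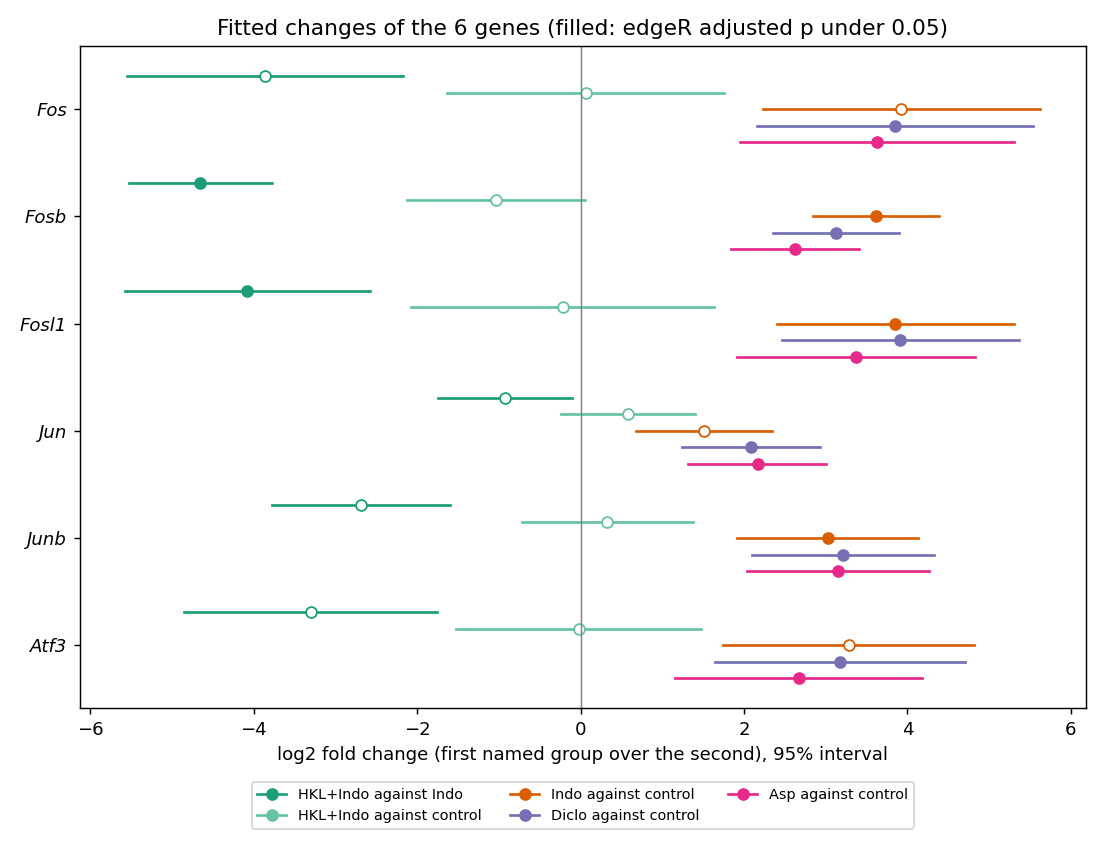
Fitted log2 fold changes (points) with 95% intervals (lines) for the 6 genes in 5 comparisons, filled where the edgeR adjusted p was under 0.05. The 3 NSAID comparisons against control lie to the right of 0 for all 6 genes, honokiol plus indomethacin against indomethacin lies to the left, and honokiol plus indomethacin against control spans 0.

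Honokiol before indomethacin was set against indomethacin alone, since the protocol gives honokiol as a protective pre-treatment. In that group all 6 genes were below both indomethacin libraries, and Fosb and Fosl1 were called lower. Both had passed the filter on low counts through the NSAID libraries, where they are high. Fosb had 0.162 and 0.15 CPM with honokiol plus indomethacin, against 3.74 and 4.29 CPM with indomethacin, from 5 and 4 counts against 134 and 167. It fell by 4.65 ± 0.4 on the log2 scale (SE; by edgeR, adjusted p = 0.0014), and its unadjusted p of 8.8e-08 was the lowest of the 16346 genes tested. Fosl1 had 0.259 and 0.15 CPM, against 2.71 and 4.39 CPM, and fell by 4.08 ± 0.68 on the log2 scale (SE; by edgeR, adjusted p = 0.038). The counts of Fosl1 were 8 and 4 with honokiol plus indomethacin, so the ratio of its scaled counts, 0.0581, has an exact 95% Poisson interval of 0.0297 to 0.103.

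The other 4 genes were not called in this comparison. Fos had 2.23 and 2.25 CPM with honokiol plus indomethacin, against 22.9 and 42.2 CPM with indomethacin, a log2 difference of -3.86 ± 0.72 (SE; by edgeR, adjusted p = 0.12). Junb had 15.5 and 12.8 CPM, against 63 and 120 CPM, a log2 difference of -2.69 ± 0.48 (SE; by edgeR, adjusted p = 0.067). Atf3 had 5.63 and 2.21 CPM, against 28.9 and 49 CPM, a log2 difference of -3.3 ± 0.66 (SE; by edgeR, adjusted p = 0.14), and its 2 honokiol plus indomethacin libraries differed more than those of the other 5 genes. Jun had 25.4 and 24.5 CPM, against 31.8 and 63 CPM, a log2 difference of -0.93 ± 0.37 (SE; by edgeR, adjusted p = 0.46).

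The 2 calls compare with 0.3% of all tested genes called lower, and the groups did not overlap for 6 of 6 genes, as for 23.6% of tested genes in that direction. The median log2 difference of the 6 genes was -3.58, against -0.02 over all tested genes. With all libraries 56 genes were called in either direction. Without honokiol plus indomethacin replicate 1 none of the 17002 genes tested was called, so 0 of the 6 were, although 5 of them were below 0.05 before adjustment (with all libraries 6 of 6, and 9.49% of tested genes). Fosb alone of the 6 was called without honokiol plus indomethacin replicate 2, where 3 genes were called in all, without indomethacin replicate 2, where 9 were, and without control replicate 1 or 2, where 52 were each time. Fosb and Junb were called without indomethacin replicate 1, where 46 genes were. All but Jun were called without diclofenac replicate 1 or 2, where 118 and 116 genes were, and by DESeq2, where 250 were. With a Y-read term 1 of the 6 (Fosb) was called, of 35 genes in all. Within the libraries with Y reads the log2 difference was -3.34 for Fos, -4.53 for Fosb, -3.66 for Fosl1, -0.33 for Jun, -2.14 for Junb and -2.85 for Atf3. Indomethacin has a lone library there, assumed to vary like the 2 honokiol plus indomethacin libraries. Both honokiol plus indomethacin libraries hold Y reads and indomethacin replicate 2 does not.

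Set against control, honokiol plus indomethacin gave 0 calls among the 6 genes by edgeR, where 0% of all tested genes were called, and 0 by DESeq2, which called 17 of the 16346 genes. Before adjustment 0 of the 6 were below 0.05 in edgeR, and 4.99% of tested genes were. Groups did not overlap for Jun and Junb, which were higher, as for 18.3% of tested genes, and for Fosb, which was lower, as for 19.4%. Fos had 2.23 and 2.25 CPM with honokiol plus indomethacin and 2.24 and 2.04 CPM in controls, a fold of 1.05 whose 95% interval, 0.324 to 3.38, is wide. In the fit each gene has 1 spread for all 5 groups, and the 2 Fos libraries of each NSAID group lay further apart. They differed 1.84-fold with indomethacin, 3-fold with diclofenac and 2.82-fold with aspirin. From counts alone the ratio is 1.05, with an exact 95% Poisson interval of 0.814 to 1.34, which covers counting error only. Fosl1 and Atf3, like Fos, overlapped with controls. Jun was higher in both honokiol plus indomethacin libraries, at 25.4 and 24.5 CPM, than in controls, at 17 and 16.3 CPM, a log2 difference of 0.58 ± 0.37 (SE; by edgeR, adjusted p = 0.83). Junb likewise lay above both controls, at 15.5 and 12.8 CPM against 12.1 and 10.4 CPM, with a log2 difference of 0.33 ± 0.46 (SE; by edgeR, adjusted p = 0.89). Fosb lay below both controls, at 9 counts in the group against 20 in controls, a log2 difference of -1.04 ± 0.49 (SE; by edgeR, adjusted p = 0.83).

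Between the NSAIDs, at doses that differ, 0 of the 6 genes were called by edgeR or DESeq2 in any of the 3 pairs, where edgeR called 0.0184% of tested genes between indomethacin and diclofenac, 0.0184% between indomethacin and aspirin and 0% between diclofenac and aspirin. DESeq2 called 165, 469 and 8 of the 16346 genes in these pairs. Before adjustment 1 gene was below 0.05, Fosb between indomethacin and aspirin, where 20.1% of tested genes were. In the indomethacin to diclofenac and diclofenac to aspirin pairs 0 were, against 11.9% and 5.21% of tested genes. The log2 difference of Fosb between indomethacin and aspirin was 0.99 ± 0.3 (SE; by edgeR, adjusted p = 0.15), and the 95% interval of the fold of 1.99 ran from 1.27 to 3.11. Fosb was ordered indomethacin, diclofenac, aspirin, with no overlap between neighbours, as for 25.1% (indomethacin over diclofenac), 28.3% (indomethacin over aspirin) and 18.9% (diclofenac over aspirin) of tested genes. The indomethacin and diclofenac libraries differed 1.4-fold (0.906 to 2.18) and the diclofenac and aspirin libraries 1.41-fold (0.903 to 2.21), and neither step was called. Jun had the opposite order of group means, at 47.4 CPM ± 22.1 with indomethacin, 70.8 ± 34 with diclofenac and 74.8 ± 18.5 with aspirin (SD, n = 2 each), and its libraries overlapped. For Fos the interval of the fold between indomethacin and diclofenac, 0.385 to 2.87, is too wide to show whether they act alike.

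Per length of exon the make-up of the group differed between mucosa given an NSAID alone and control mucosa. The summed level of the 6 genes, in CPM per kb of exon, was 20.4 and 17.4 with honokiol plus indomethacin, 72.6 and 135 with indomethacin, 70.3 and 163 with diclofenac, 72.1 and 143 with aspirin, and 15.5 and 13.8 in controls. Junb held the largest share of this sum in every NSAID and control library, and in honokiol plus indomethacin replicate 1. In honokiol plus indomethacin replicate 2 Jun was higher, at 45.5% against 41.2% for Junb. The share of Jun was 40.1% and 45.5% with honokiol plus indomethacin, 14.2% and 15.1% with indomethacin, 21.5% and 18.9% with diclofenac, 27.7% and 19.9% with aspirin, and 35.6% and 38.2% in controls. The share of Fos was 6.88% and 8.12% with honokiol plus indomethacin, 19.9% and 19.7% with indomethacin, 13.9% and 18% with diclofenac, 12.1% and 17.3% with aspirin, and 9.11% and 9.29% in controls. The NSAID libraries thus held a larger share of Fos and a smaller share of Jun than any control or honokiol plus indomethacin library. These shares are descriptions with no test.

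The ratio of Fos to Jun, again per kb of exon, was 0.171 and 0.178 with honokiol plus indomethacin, 1.4 and 1.3 with indomethacin, 0.644 and 0.952 with diclofenac, 0.437 and 0.866 with aspirin, and 0.256 and 0.243 in controls. Both indomethacin libraries were above all diclofenac and aspirin libraries, although they differed from each other in Fos level by 1.84-fold. The ratio of Junb to Jun ran in the same way, at 1.06 and 0.906 with honokiol plus indomethacin, 3.43 and 3.31 with indomethacin, 2.38 and 2.64 with diclofenac, 1.84 and 2.63 with aspirin, and 1.23 and 1.11 in controls.

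**Figure D3:**
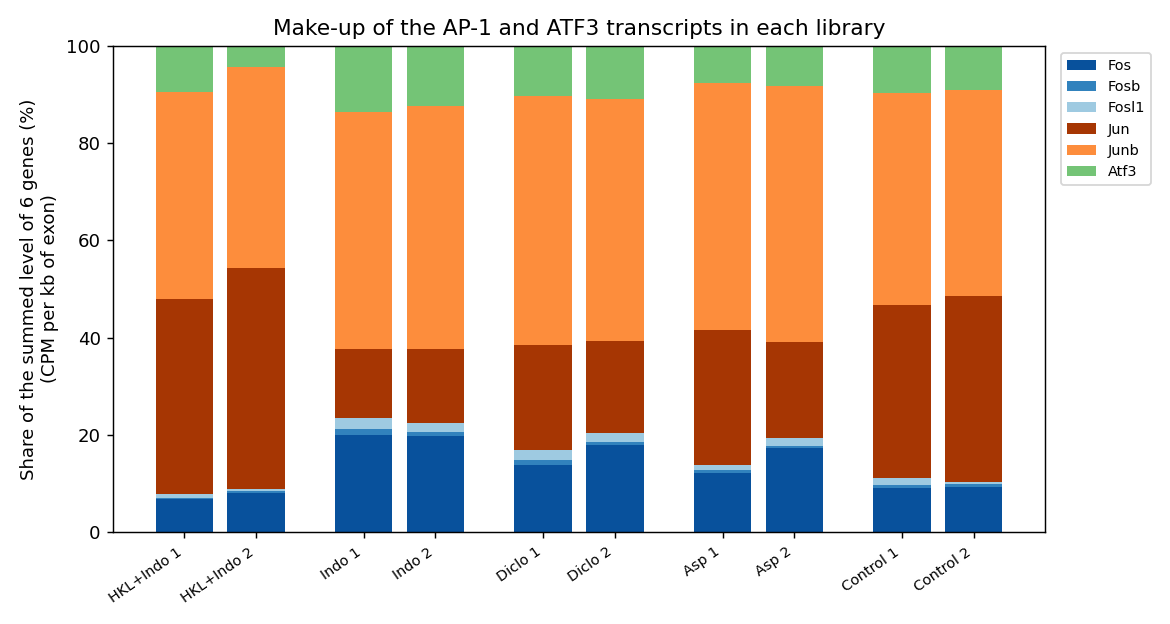
Share (%) of each gene in the summed level of the 6 genes, in CPM per kb of exon, with a bar for each library of the honokiol plus indomethacin (HKL+Indo), indomethacin (Indo), diclofenac (Diclo), aspirin (Asp) and control groups. Jun takes 14.2% to 27.7% of the bar in NSAID libraries and 35.6% to 45.5% in honokiol plus indomethacin and control libraries.

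The 2 libraries of each NSAID group differed in all 6 genes in the same direction. Replicate 2 exceeded replicate 1 by 1.15-fold (Fosb) to 1.98-fold (Jun) with indomethacin, by 1.42-fold (Fosb) to 3-fold (Fos) with diclofenac and by 1.07-fold (Fosb) to 3.01-fold (Fosl1) with aspirin. Of all tested genes, 10.8% were higher in replicate 2 with each of the 3 drugs. The replicate numbers share no stated source between groups, so agreement of direction between groups depends on how the libraries were numbered. In controls the 6 genes were lower in replicate 2, at 0.385-fold (Fosl1) to 0.958-fold (Jun). With honokiol plus indomethacin the fold ran from 0.392 (Atf3) to 1 (Fos). Fos was level there, at 2.23 and 2.25 CPM, and the other genes were lower in replicate 2. Diclofenac and aspirin replicates held at most 47 counts on the Y chromosome. Their shares of the mitochondrial ribosomal positions were 18.7% and 19.2% with diclofenac and 20.2% and 21.2% with aspirin. The indomethacin replicates differed in both measures. Whether either measure bears on the differences between replicates was not tested.

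**Figure D4:**
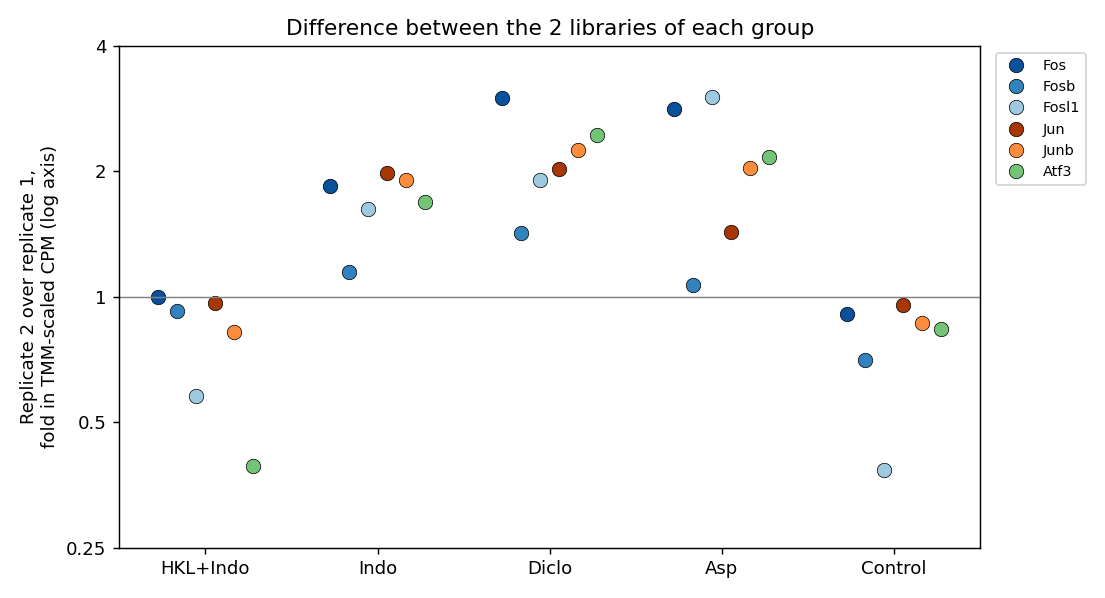
Fold of replicate 2 over replicate 1 in TMM-scaled CPM, on a log axis, for each gene (colours) in the honokiol plus indomethacin (HKL+Indo), indomethacin (Indo), diclofenac (Diclo), aspirin (Asp) and control groups. All 18 points of the 3 NSAID groups lie above 1, with Fosb lowest in each group, and the highest point of the other groups is 1, for Fos with honokiol plus indomethacin. The side of 1 on which a group lies depends on how its libraries were numbered.

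The genes next to the 6 were counted in the same way. Within 100 kb of the 6 genes lay 62 other features, of which 42 were tested. With the mean of the 3 NSAIDs against control 3 of the 42 were called higher and 1 lower, where 6.11% of all tested genes were called higher and 5.02% lower. The 3 were near Fosb (1 of 11 tested) and Fosl1 (2 of 14), the 1 lower was near Junb (of 14), and near Atf3 no other feature passed the filter on low counts.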

How the data were processed

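The authors deposited raw read counts per gene, whole numbers that per the file headers come from featureCounts, beside exon coordinates and exonic length. The tools named in the submitters' processing notes are HISAT2 2.1.0, cutadapt 1.16, FastQC 0.11.7, featureCounts, DESeq2, SAMtools and bcl2fastq, and libraries were ribosomal RNA-depleted and stranded per the labels' protocols. No source used here names the build, the strand setting or the treatment of multiply mapped reads. Totals were 23892226 to 44977459 counts, and replicates differed by far more than sampling noise (chi-square per degree of freedom 38.1 to 389).

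Counts were fitted here in edgeR 4.0.16 (R 4.3.3) by its quasi-likelihood test: TMM factors, filterByExpr (minimum count 10, minimum total 15), robust moderation, group as the only term, all 10 libraries, 5 residual degrees of freedom, 16346 genes tested. Calls are at a Benjamini-Hochberg adjusted p under 0.05 over all tested genes. The standard error is the log2 fold change divided by the t value of its p, and intervals are 95%. An exact permutation test of 2 against 2 libraries cannot go below p = 0.333 and was not used. Levels between genes are TMM-scaled CPM per kb of exon. Scripts were tested on simulated data. Alternatives were other scalings and filters, DESeq2 1.42.0, only the groups compared, a replicate block, Y-read fits and leaving out each library.

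The 6 genes and all lists were chosen with earlier results of these data known. The 6 symbols are those of the selection rule: 0 of the 32623 identifiers occur in the RefSeq table (GRCr8), which lists all 6 symbols on the same chromosomes. Hence the pathway and marker lists, and the rule naming genes of like pattern, which need symbols, could not be applied. Promoter windows are from RefSeq, whose table matched 3 of the 6 (Fosb, Fosl1 and Junb).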

Additional observations from a re-analysis of the deposited data

How the results depend on the processing

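The fitted direction of each of the 6 genes was the same under every alternative run for the 3 NSAIDs against control, their mean against control, and honokiol plus indomethacin against indomethacin. Of 1030 values of single genes under an alternative, 913 kept their side of the threshold, 79 lost a call, 38 gained one and none of a called gene changed sign. The 1030 include the pairs of drugs and honokiol plus indomethacin against control. No fit called any of the 6 there, so all values of those comparisons count as kept. Every lost or gained call thus falls in the remaining comparisons, where the share kept is lower than over all 1030. The number of the 6 genes called is given in the order indomethacin, diclofenac, aspirin, mean of the 3 NSAIDs (all against control), then honokiol plus indomethacin against indomethacin. It was 3, 6, 6, 6 and 2, and with 1 library left out it ranged from 0 to 6, 2 to 6, 1 to 6, 1 to 6 and 0 to 5. With a Y-read term it was 1, 2, 3, 4 and 1. Within the libraries without Y reads it was 1 in each of the first 4, and within those with Y reads 3 for indomethacin and 4 for honokiol plus indomethacin against indomethacin. For indomethacin against control and honokiol plus indomethacin against indomethacin, it was 6 and 6 without a filter on low counts (a fit that calls 834 and 699 of all genes, against 127 and 56), 6 and 4 with only the groups compared (262 and 250 of all genes), and 6 and 5 by DESeq2 (381 and 250). Without the filter Fos with indomethacin had an edgeR adjusted p of 2e-39, against 0.08 with it, though its 2 libraries differed 1.84-fold. So extreme a value from 2 libraries a group is not read as stronger evidence. With only the groups compared the number called was 5 for diclofenac, where Fos had an adjusted p of 0.051 by edgeR and 527 genes were called, against 1286. With a replicate block it was 4, 6, 6, 6 and 4. The replicate numbers share no stated source, and the differences between replicates correlated from -0.32 to 0.39 between groups, so the numbers were not taken as pairs. RLE factors and the stricter filter left these numbers as they were, and library totals alone gave 2, 4, 5, 5 and 2. No alternative run called any of the tested genes among the 6 between drugs or for honokiol plus indomethacin against control, by edgeR or DESeq2. With only the groups compared, Fosb and Fosl1 did not pass the filter in that last comparison and 4 were tested. Without division by length Junb is not the leading gene of the control group: Jun has 48.2% of the sum and Junb 32.5%, against 36.9% and 43% per length. Depth limits Fosb and Fosl1 most, at 20 counts or fewer in the control and honokiol plus indomethacin groups. The causes of these differences were not tested.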
